A study of Mus musculus with 12 samples.

Results

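Hpcal1, Unc119b, Tinagl1, Fam107a, Dab2ip, Slc43a3, Capn2, Frmd4b, Vwa3a and Trpv4 are 10 protein-coding genes of the mouse left ventricle whose depth-scaled counts stood higher in hearts with heart failure with preserved ejection fraction (HFpEF) and lower again after dosing with TYA-018, a small-molecule inhibitor of the deacetylase HDAC6. They were selected on small p values in those same comparisons, so their rise and fall is given as a description with no test. All 10 were found by symbol among the 29564 rows of the deposited gene table, and all 10 were among the 14333 genes that passed the filter on low counts. Bulk RNA sequencing had been run on left ventricles of wild-type C57BL6 mice (male C57BL/6J in the study's methods), 4 animals in each of 3 groups. Control-Veh mice were non-failing and received vehicle. HFpEF-Veh mice carried the model made by a high-fat diet together with L-NAME, an inhibitor of nitric oxide synthase, and received vehicle. HFpEF-TYA-018 mice carried the same model and received TYA-018 by mouth at 15 mg/kg. The labels differ on the schedule: their series title names a single dose, whereas their protocol describes once-daily doses over weeks. The study's text describes sequencing of hearts harvested hours after a single dose, before structure or function had improved. Its long-term sequencing had larger groups and included mice given empagliflozin, which these 3 groups lack, so the design here is closer to the single-dose experiment. The labels alone do not settle which schedule these hearts had, so an early and a lasting effect of the compound cannot be told apart from them. No group of control mice received TYA-018, so the action of the compound outside the model was not measured. The labels give no age, sex or batch, and the animal numbers of each group lie together, so handling order and group cannot be told apart.

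As background, the products of these genes sit at the membrane and around it. Trpv4 is a calcium-permeable channel opened by stretch, swelling and warmth, Hpcal1 is a calcium sensor and Capn2 a protease switched on by calcium. Unc119b carries proteins that bear a myristoyl anchor, while Frmd4b, Dab2ip and Fam107a act as scaffolds or binders at the cell cortex and the actin skeleton. Slc43a3 moves purine bases across the membrane, Tinagl1 is secreted into basement membranes, and Vwa3a is little characterised. Several of them (Tinagl1, Slc43a3, Trpv4, Dab2ip) are known from blood vessel walls, and bulk tissue does not show which cell made a transcript.

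The 12 libraries held 61177646 to 83928922 estimated counts, and the deepest was HFpEF-TYA-018 replicate 1. Mitochondrially encoded genes took 45.1% ± 2.06 of the counts in the HFpEF-Veh libraries, against 38.8% ± 1.58 in Control-Veh and 38.9% ± 2.65 in the dosed libraries (SD, n = 4). Globin genes took 0.770% ± 0.397, 0.204% ± 0.0374 and 0.296% ± 0.0424 in that order. Both shares were highest in HFpEF-Veh, as were the 10 genes, and their part in the differences below was not tested. The ventricular marker Myl2 was abundant in every group, with means from 5249.6 to 8434 transcripts-per-million (TPM), while the atrial markers Sln and Myl7 stayed at or below 0.261 TPM. Of the other atrial markers, Myl4 had means from 1.94 to 2.46 TPM, and Nppa, a natriuretic peptide that stressed ventricles also make, from 102 TPM in HFpEF-Veh to 189 in Control-Veh.

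Promoter sequence is shown for 5 of the genes, because they moved together and their upstream bases differ in composition. RefSeq promoter windows matched 9 of the 10 symbols, with 17 windows in all on GRCm38.p6. Each run below holds the 250 bases before a start, read 5′ to 3′ on the strand of the gene, and capitals mark the motifs found on either strand. The runs lie at chr12:17690559-17690808 on the plus strand for Hpcal1 and, all on the minus strand, at chr5:114658422-114658671 for Trpv4, chr1:182517611-182517860 for Capn2, chr4:130175123-130175372 for Tinagl1 and chr14:8309778-8310027 for Fam107a.
Hpcal1: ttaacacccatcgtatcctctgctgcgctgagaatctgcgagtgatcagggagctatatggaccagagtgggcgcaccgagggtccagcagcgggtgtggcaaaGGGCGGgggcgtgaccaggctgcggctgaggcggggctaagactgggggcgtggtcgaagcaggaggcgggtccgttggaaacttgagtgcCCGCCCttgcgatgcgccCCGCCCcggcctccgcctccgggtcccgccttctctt
Trpv4: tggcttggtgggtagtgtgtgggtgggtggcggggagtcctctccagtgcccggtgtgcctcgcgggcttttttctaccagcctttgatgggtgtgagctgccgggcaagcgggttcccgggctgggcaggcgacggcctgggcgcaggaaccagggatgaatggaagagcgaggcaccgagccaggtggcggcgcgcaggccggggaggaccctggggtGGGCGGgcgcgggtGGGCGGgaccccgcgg
Capn2: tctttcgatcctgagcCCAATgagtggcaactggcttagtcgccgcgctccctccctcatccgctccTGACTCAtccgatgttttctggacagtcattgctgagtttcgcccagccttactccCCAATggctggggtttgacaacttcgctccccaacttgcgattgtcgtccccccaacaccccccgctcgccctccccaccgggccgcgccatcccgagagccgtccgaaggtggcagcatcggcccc
Tinagl1: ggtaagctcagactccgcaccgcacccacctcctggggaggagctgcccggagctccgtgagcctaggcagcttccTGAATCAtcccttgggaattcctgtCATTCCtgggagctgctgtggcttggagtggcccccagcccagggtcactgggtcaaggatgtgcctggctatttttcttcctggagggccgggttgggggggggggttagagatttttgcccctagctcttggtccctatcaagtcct
Fam107a: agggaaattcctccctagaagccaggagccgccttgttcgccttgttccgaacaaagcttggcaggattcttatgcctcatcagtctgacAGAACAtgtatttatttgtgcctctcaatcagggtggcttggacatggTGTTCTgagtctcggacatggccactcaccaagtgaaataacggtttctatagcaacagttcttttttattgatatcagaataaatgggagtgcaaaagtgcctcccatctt

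Hpcal1 and Trpv4 had the base composition of CpG islands, with 66.8% and 72.0% G and C and 22 CpG pairs each, against medians of 52.4% and 6 over 32851 windows of the same length. The Fam107a window shown held 45.2% G and C and 5 CpG pairs, and it lies well inside the span of the gene. Another Fam107a window nearer to the 5′ end (chr14:8317608-8317857) held 62.8% G and C, 11 CpG pairs and none of the motifs. Hpcal1 carried 3 copies of the GC box GGGCGG and Trpv4 carried 2. It was in 8 of the 17 windows, against 32.7% of all windows, and 6 of the 9 matched genes had at least 1 window with it. Capn2 carried the CCAAT box CCAAT in 2 places and the AP-1 site TGANTCA. The Tinagl1 window shown carried that AP-1 site and the TEAD motif GGAATG. The other Tinagl1 window carried neither but held the GC box, with 59.2% G and C and 13 CpG pairs. The Fam107a window shown held TGTTCT, a short part of the glucocorticoid receptor motif, in 2 places. Among all windows, CCAAT was present in 33.8%, TGANTCA in 6.75%, GGAATG in 12.6% and TGTTCT in 16.1%. Over the 9 matched genes, CCAAT was found for 3 (Dab2ip, Capn2, Frmd4b), TGANTCA for 3 (Tinagl1, Capn2, Frmd4b), GGAATG for 2 (Tinagl1, Vwa3a), TGTTCT for 1 (Fam107a) and TATAAA, present in 12.4% of all windows, for 2 (Unc119b, Frmd4b). Counted by window, the like measure to the shares of all windows, these motifs were in 5, 3, 2, 2 and 2 of the 17 in that order. The E box CACGTG and the cAMP response element TGACGTCA were in none of the 17 windows, and in 6.02% and 1.55% of all windows. Genes with several windows had more chances to hold a motif, and no single motif was found in all 9. These letter matches describe the windows and show no binding.

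All 10 genes stood higher in the HFpEF-Veh libraries than in those of Control-Veh in counts-per-million values (CPM, with TMM scaling), with log2 differences from 0.30 (Slc43a3) to 1.01 (Fam107a) and a median of 0.68. The median over all tested genes was −0.011. None of the 10 had overlapping CPM values between these groups, which held for 12% of all tested genes in the upward direction, and 10.9% of all tested genes were called higher by edgeR at an adjusted p under 0.05. The choice of the genes used this contrast, so nothing is read from that count. Of all genes called in this comparison 51.5% were higher, and 24.7% when libraries were scaled by their size only. Slc43a3 was the exception to the direction on another scale, and its difference turned to −0.07 on log2(TPM + 1). In bulk tissue, more cells of a type and more RNA per cell cannot be told apart.

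After the dose, all 10 genes stood lower in HFpEF-TYA-018 than in HFpEF-Veh libraries, with log2 differences from −0.53 (Capn2) to −1.47 (Fam107a) and a median of −0.84. The median of all tested genes was 0.0020. No gene of the 10 had CPM values that overlapped between these groups, against 13.1% of all tested genes in the downward direction, and 10.4% of all tested genes were called lower. This contrast was also used by the choice. Of all genes called here 46.3% were higher, against 79.8% with library size only and 97.0% when log2(TPM + 1) was tested, a scale on which the all-gene median was 0.17. Their p values ranked between 2 and 45 of 14333 here, and between 6 and 1586 in the model comparison, where Slc43a3 held the last of these ranks and 6 of the genes ranked within the first 50. Both comparisons share the HFpEF-Veh libraries.

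**Figure D1:**
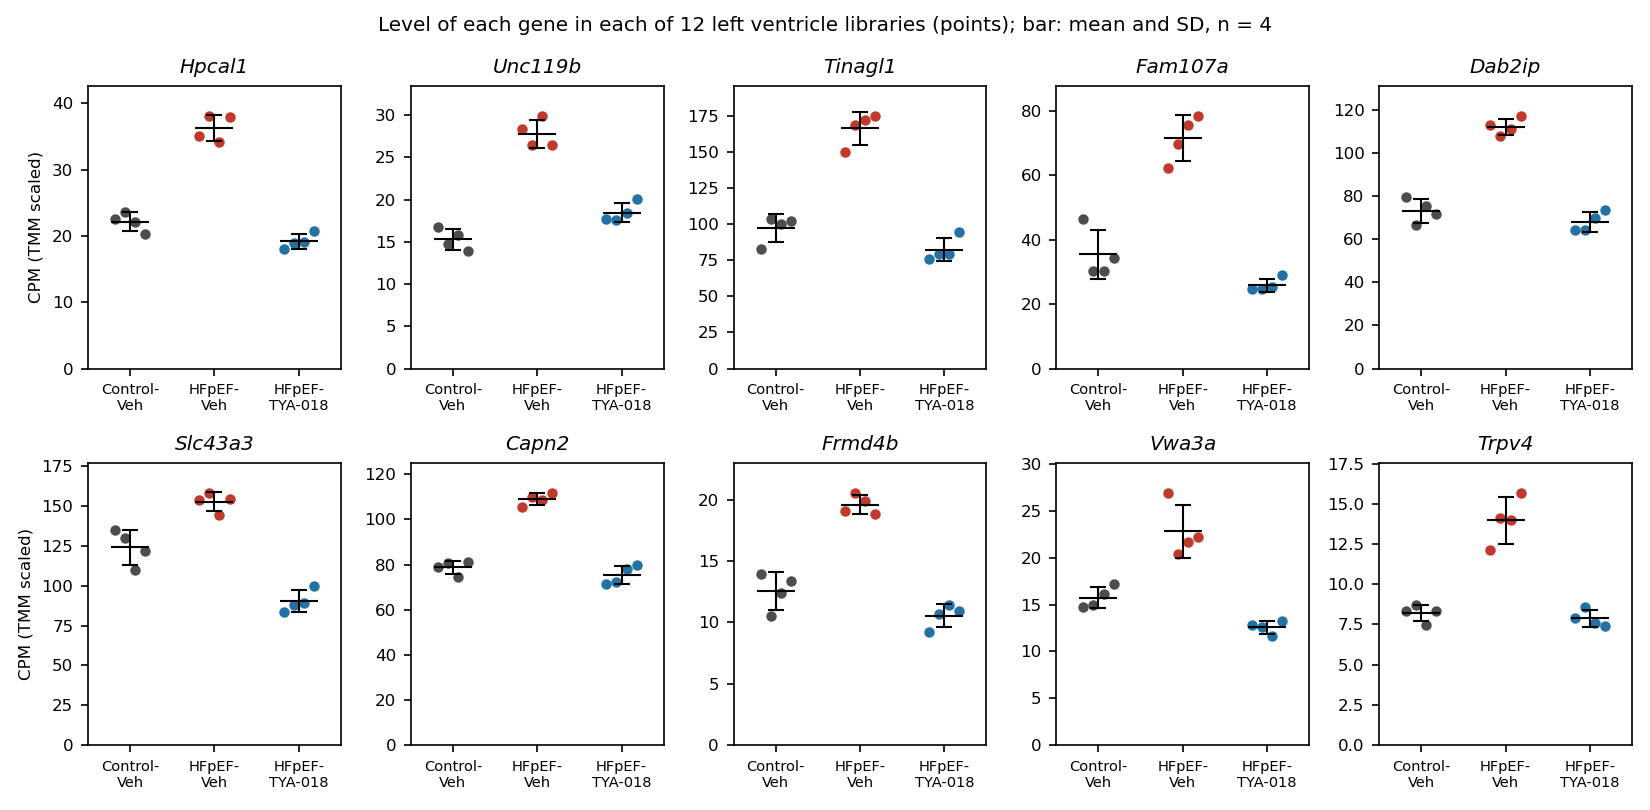
CPM after TMM scaling (linear axis from 0, one panel per gene) of the 10 genes in each of the 4 libraries of each group, with group means marked. In every panel the 4 HFpEF-Veh points lie above all points of the other groups, for example 62.4 to 78.4 CPM of Fam107a against 24.6 to 46.6 CPM.

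The difference of HFpEF-TYA-018 from Control-Veh is, for each gene, the sum of the model and dose differences that chose the 10 genes. Its values and calls therefore come from measurements that the choice used, and they are a description with no independent support. In edgeR's quasi-likelihood test over all genes 2 of the 10 had an adjusted p under 0.05, against 5.86% of all tested genes. The log2 difference was −0.46 for Slc43a3 (adjusted p = 0.00665) and 0.27 for Unc119b (adjusted p = 0.0494, from 0.0155 to 0.314 over the alternative settings and left-out libraries). The other 8 genes did not pass, with log2 differences between −0.45 and −0.061. CPM values of Fam107a, Slc43a3 and Vwa3a lay wholly below the Control-Veh libraries, those of Unc119b wholly above, and the other 6 genes overlapped, against 14.8% of all tested genes without overlap in either direction, and on TPM all 10 overlapped. The Unc119b call was lost in every alternative setting other than DESeq2 and leaving out Control-Veh replicate 1, while that of Slc43a3 was lost only when TPM replaced counts.

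**Figure D2:**
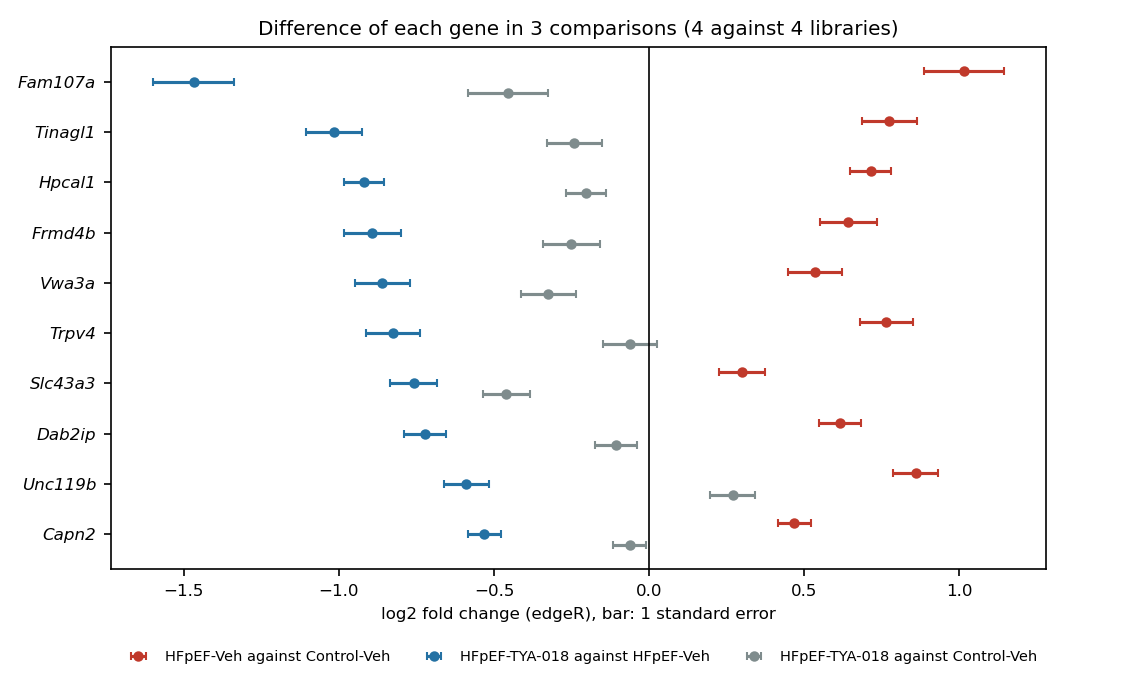
Log2 fold change (x axis, edgeR on counts) with its standard error as a bar for each of the 10 genes in the 3 comparisons of the groups, 4 libraries each. The model values lie between 0.30 and 1.01 and the dose values between −1.47 and −0.53, and the HFpEF-TYA-018 against Control-Veh values lie between −0.46 and 0.27.

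Trpv4 (chr5:114622152-114658421, minus strand, GRCm38) encodes the stretch- and swelling-gated calcium channel and has 16 exons in its longest coding transcript. Trpv4 stood at 8.34, 8.69, 7.49 and 8.36 CPM in the 4 Control-Veh libraries. It reached 12.1, 14.1, 14.0 and 15.7 CPM in HFpEF-Veh mice, and 7.90, 8.59, 7.60 and 7.43 CPM in HFpEF-TYA-018 mice. Every HFpEF-Veh library exceeded every other library, and the Control-Veh and HFpEF-TYA-018 values interleaved. The log2 difference was 0.77 ± 0.086 (SE) for the model, a 1.70-fold level, and −0.83 ± 0.086 for the dose. Against Control-Veh, the dosed group differed by −0.061 ± 0.086, and the sign of that small difference turned on TPM scales. With 475 to 920.0 estimated counts per library, Trpv4 had the lowest counts of the 10.

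Of 16 related stretch-sensing and TRP channels, 10 were tested and 4 passed the test in at least 1 comparison. On CPM, Piezo1, a mechanically gated channel, followed the same course as Trpv4. Its levels were 35.3 ± 1.91, 44.3 ± 1.13 and 31.4 ± 1.76 CPM (SD, n = 4) in the control, HFpEF and dosed groups, the order used for all related genes. It rose by 0.33 in the model (adjusted p = 0.00223) and fell by 0.50 with the dose (adjusted p = 0.000637) on the log2 scale. On TPM, Piezo1 took the opposite course, with means of 4.47, 3.14 and 5.50. Trpv2, of the same branch as Trpv4, rose by 0.46 in the model (adjusted p = 0.0139), and its dose difference of −0.21 missed the threshold (adjusted p = 0.207). Pkd2, the polycystin 2 channel, fell by 0.42 with the dose (adjusted p = 0.00873). Trpm7, a channel fused to a kinase, took another course: it fell by 0.45 in the model (adjusted p = 0.00108) and remained 0.54 below Control-Veh after the dose (adjusted p = 0.00153). Trpv1 and Trpv3 had group means of at most 0.241 CPM.

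Slc43a3 (chr2:84936579-84958509, plus strand) encodes an equilibrative transporter of purine nucleobases. Slc43a3 stood at 135, 129.8, 109.9 and 122 CPM in the 4 Control-Veh libraries. Levels of 154, 158, 144 and 154 CPM were found in the HFpEF-Veh hearts, and of 83.6, 88.1, 89.3 and 99.9 CPM in the dosed hearts. The 3 groups formed 3 separate ranges, HFpEF-TYA-018 lowest and HFpEF-Veh highest, over 5721 to 9951 estimated counts per library. The model difference was the smallest of the 10 at 0.30 ± 0.075, while the dose difference was −0.76 ± 0.075, which put HFpEF-Veh at 1.69 times the dosed level. The dosed libraries lay −0.46 ± 0.075 from Control-Veh on the log2 scale. Its TPM gave a different picture, with group means of 20.2, 19.1 and 17.8, while its effective length moved with the groups.

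Among the Slc43 and purine salvage genes, 10 of 10 were tested and 6 passed in at least 1 comparison. Slc29a3, an intracellular nucleoside transporter, rose by 0.59 in the model (adjusted p = 0.0236) and fell by 0.50 with the dose (adjusted p = 0.0496). Ada, which deaminates adenosine, stood at 0.665 ± 0.0364, 1.125 ± 0.362 and 0.519 ± 0.0867 CPM, a rise of 0.76 (adjusted p = 0.0492) followed by a fall of 1.11 (adjusted p = 0.0111). Pnp, which frees purine bases from nucleosides, fell by 0.55 with the dose (adjusted p = 0.00954), and so did the amino acid transporter Slc43a1, by 0.69 (adjusted p = 0.00575). In the opposite direction, the adenosine kinase Adk rose by 0.21 with the dose (adjusted p = 0.0255), and Slc43a2, another amino acid transporter, stood 0.51 above Control-Veh in dosed mice (adjusted p = 0.0311). The salvage enzymes Hprt and Aprt passed in no comparison, with adjusted p values of 0.200 and 0.613 in the model.

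Hpcal1 (chr12:17690856-17791933, plus strand) encodes a myristoylated calcium sensor of the visinin-like family with EF-hand domains. Hpcal1 stood at 22.5, 23.6, 22.1 and 20.2 CPM in the 4 Control-Veh libraries. The HFpEF-Veh libraries held 35.1, 38.0, 34.2 and 37.9 CPM of it, and the HFpEF-TYA-018 libraries 17.9, 19.0, 19.1 and 20.7 CPM. The HFpEF-Veh values stood clear of all 8 others, and the dosed libraries reached down to and below the Control-Veh range with an overlap at the upper end. The model difference was 0.71 ± 0.065, which is 1.64-fold, and the dose difference −0.92 ± 0.065. Against Control-Veh, the dosed group differed by −0.20 ± 0.065. Part of this gene's sequence is not its own: 19.7% of its 31-base words in the GENCODE M21 transcripts also occur in 54 other genes, with Gm20336 and Gm49329 sharing the most, and its counts were fractional in all 12 libraries. Estimated counts of Hpcal1 are therefore less certain than the others, for which at most 1.11% of words were shared.

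The neuronal calcium sensor family was sparse in the ventricle, and 5 of its other 10 genes were tested. Kcnip2, the subunit that sets the cardiac transient outward potassium current, moved opposite to Hpcal1, with 93.8 ± 13.7, 52.1 ± 3.57 and 80.0 ± 6.79 CPM. It fell by 0.85 in the model (adjusted p = 0.000521) and rose by 0.62 with the dose (adjusted p = 0.00268). Ncs1, a sensor close in fold to Hpcal1, also fell by 0.34 (adjusted p = 0.0499) and rose by 0.47 (adjusted p = 0.0145). Kcnip3, which also acts as a calcium-regulated repressor, fell by 0.61 with the dose (adjusted p = 0.00286) and stood 0.39 below Control-Veh (adjusted p = 0.0454). The paralogs closest in name, Hpca and Hpcal4, had means of at most 0.119 CPM and were not tested. Ncald, of the same family, stood at 7.10 ± 0.967, 5.91 ± 0.620 and 5.95 ± 0.461 CPM. It passed in no comparison, with log2 differences of −0.27 in the model (adjusted p = 0.113) and 0.011 with the dose (adjusted p = 0.955).

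Capn2 (chr1:182467260-182517608, minus strand) encodes the catalytic subunit of m-calpain, a calcium-dependent cysteine protease. Capn2 stood at 78.7, 80.8, 74.6 and 81.0 CPM in the 4 Control-Veh libraries. It reached 106, 109.9, 109 and 112 CPM in HFpEF-Veh mice, and 71.5, 72.4, 78.3 and 79.6 CPM in HFpEF-TYA-018 mice. The HFpEF-Veh libraries lay within a narrow band that no other library reached, and the values of Control-Veh and HFpEF-TYA-018 overlapped. The model difference of 0.47 ± 0.054 and the dose difference of −0.53 ± 0.054 had the smallest standard errors of the 10. Dosed and Control-Veh mice differed by −0.062 ± 0.054 (adjusted p = 0.542), and that sign turned on TPM scales.

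Of 12 other genes of the calpain system, 8 were tested and 3 passed in at least 1 comparison. Capn1, the paralog that pairs with the same small subunit, stood at 20.2 ± 0.955, 20.8 ± 1.15 and 19.8 ± 1.03 CPM and passed in no comparison (adjusted p = 0.674 for the model and 0.476 for the dose). The shared small subunit Capns1 had log2 differences of −0.022 and 0.019 (adjusted p = 0.921 and 0.930). Capn5 fell by 0.54 with the dose (adjusted p = 0.0499), Capn7 fell by 0.25 in the model (adjusted p = 0.0116), and the calpain inhibitor calpastatin, Cast, rose by 1.75 in the model (adjusted p = 0.0391) from only 0.560 ± 0.414 CPM. Capn15 was listed at 0 in all 12 libraries.

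Unc119b (chr5:115122550-115134975, minus strand) encodes a chaperone that shields myristoyl groups and delivers its cargo to cilia, where the GTPase Arl3 releases it. Unc119b stood at 16.8, 14.7, 15.8 and 13.9 CPM in the 4 Control-Veh libraries. Levels of 28.4, 26.5, 29.9 and 26.5 CPM were found in the HFpEF-Veh hearts, and of 17.7, 17.6, 18.4 and 20.1 CPM in the dosed hearts. Its dosed libraries lay between the other groups and touched neither. The model difference was 0.86 ± 0.073 and the dose difference −0.59 ± 0.072. Dosed hearts stood 0.27 ± 0.073 above Control-Veh. On TPM its group means were 0.841 (Control-Veh), 1.31 (HFpEF-Veh) and 1.26 (dosed), and the dosed libraries overlapped those of HFpEF-Veh.

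Of the partners of Unc119b, 9 of 10 were tested. The paralog Unc119 stood at 3.09 ± 0.502, 2.60 ± 0.555 and 3.47 ± 0.328 CPM and passed in no comparison, with an adjusted p of 0.0955 for the dose. The ciliary GTPase Arl13b fell by 0.41 with the dose (adjusted p = 0.0234). Of the enzymes that attach myristate, Nmt2 fell by 0.34 with the dose (adjusted p = 0.00883), while Nmt1 stood 0.21 above Control-Veh in dosed mice (adjusted p = 0.0202). Arl3 missed the threshold in each comparison, with an adjusted p of 0.257 in the model.

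Frmd4b (chr6:97286867-97617541, minus strand) encodes a FERM domain scaffold that binds cytohesin 3, an exchange factor for the small GTPase Arf6. Frmd4b stood at 13.9, 10.5, 12.4 and 13.4 CPM in the 4 Control-Veh libraries. The HFpEF-Veh libraries held 19.1, 20.6, 19.9 and 18.8 CPM of it, and the HFpEF-TYA-018 libraries 9.24, 10.7, 11.4 and 10.9 CPM. The HFpEF-Veh libraries lay above all others, and dosed libraries reached from below the Control-Veh range into its lower part. Its log2 change was 0.64 ± 0.092 for the model and for the dose −0.89 ± 0.092. The difference from Control-Veh after the dose was −0.25 ± 0.092, and its sign turned on log2(TPM + 1). Frmd4b counts were fractional in all 12 libraries, and 4 small annotated transcripts, among them a snoRNA and a snRNA, lie inside its span.

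The partners named by this interaction moved with it. Cyth3, cytohesin 3, stood at 29.1 ± 4.95, 43.7 ± 2.00 and 26.3 ± 0.480 CPM, a rise of 0.59 (adjusted p = 0.00179) and a fall of 0.73 (adjusted p = 0.00103). Arf6 stood at 12.4 ± 1.21, 18.005 ± 1.82 and 13.2 ± 0.704 CPM, a rise of 0.53 (adjusted p = 0.00202) and a fall of 0.45 (adjusted p = 0.00600). Among the other cytohesins, Cyth4, a leukocyte form, rose by 0.37 in the model (adjusted p = 0.0214), and Cyth1 and Cyth2 passed in no comparison. The paralog Frmd4a passed in no comparison, at 15.8 ± 0.385, 15.6 ± 1.52 and 13.7 ± 1.30 CPM (adjusted p = 0.908 and 0.131). All 9 genes of this list were tested, and these 3 were the ones that passed.

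Dab2ip (chr2:35558266-35730994, plus strand) encodes a GTPase-activating protein for Ras that also scaffolds signals from the tumour necrosis factor receptor. Dab2ip stood at 79.5, 66.4, 75.2 and 71.5 CPM in the 4 Control-Veh libraries. It reached 113, 108, 111 and 117 CPM in HFpEF-Veh mice, and 64.2, 64.1, 69.8 and 73.7 CPM in HFpEF-TYA-018 mice. The HFpEF-Veh values stood apart and the other groups overlapped over most of their ranges. The model difference was 0.62 ± 0.068 and the dose difference −0.72 ± 0.068, and the dosed group differed from Control-Veh by −0.11 ± 0.067, a sign that turned on TPM scales. An unnamed transcript, Gm13446, overlaps Dab2ip on the opposite strand, and the libraries were made with a kit that keeps strand.

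Of 9 other Ras GTPase-activating genes, 8 were tested. Rasal2, of the same subfamily, took the course of Dab2ip at 27.1 ± 5.91, 40.1 ± 4.24 and 22.2 ± 2.45 CPM. It rose by 0.56 (adjusted p = 0.0132) and fell by 0.85 (adjusted p = 0.00248). Rasa1 and the neurofibromin gene Nf1 fell with the dose, by 0.51 (adjusted p = 0.00516) and 0.36 (adjusted p = 0.00721). Rasa2 fell in the model, by 0.62 (adjusted p = 0.0139).

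Fam107a (chr14:8296274-8318023, minus strand) encodes a stress- and glucocorticoid-induced protein that binds and bundles actin filaments. Fam107a stood at 46.6, 30.4, 30.4 and 34.4 CPM in the 4 Control-Veh libraries. Levels of 62.4, 69.9, 75.7 and 78.4 CPM were found in the HFpEF-Veh hearts, and of 24.6, 24.7, 25.2 and 29.0 CPM in the dosed hearts. It had the largest swing of the 10, and its dosed libraries lay below every Control-Veh library. HFpEF-Veh stood 2.02-fold above Control-Veh (log2 1.01 ± 0.13), and the dosed group was at 0.361 times the HFpEF-Veh level (log2 −1.47 ± 0.13). The difference from Control-Veh was −0.45 ± 0.13. Control-Veh replicate 1 stood above the other Control-Veh libraries, which widened that group. The paralog Fam107b stood at 3.41 ± 0.825, 4.54 ± 0.323 and 3.84 ± 0.310 CPM and did not pass (adjusted p = 0.0656 for the model and 0.281 for the dose).

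Tinagl1 (chr4:130164454-130175122, minus strand) encodes a secreted protein of basement membranes with a domain related to cathepsin B that lacks protease activity. Tinagl1 stood at 83.1, 103, 100.5 and 102 CPM in the 4 Control-Veh libraries. The HFpEF-Veh libraries held 149.8, 169, 172 and 175 CPM of it, and the HFpEF-TYA-018 libraries 76.2, 79.3, 79.5 and 94.3 CPM. All HFpEF-Veh libraries exceeded the rest by a wide margin, Control-Veh replicate 1 lay low in its group, and the dosed and control ranges overlapped there. Log2 differences were 0.77 ± 0.089 for the model and, for the dose, −1.02 ± 0.090, which placed dosed hearts at 0.494 times the HFpEF-Veh level. Dosed hearts differed from Control-Veh by −0.24 ± 0.089 on counts, and the sign turned to 0.24 on log2(TPM + 1).

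The paralog Tinag was nearly absent, with means of at most 0.0154 CPM, and of the lysosomal cathepsins 6 of 6 were tested. Ctss, the cathepsin of antigen-presenting cells, stood at 6.29 ± 1.67, 14.0 ± 3.30 and 8.54 ± 1.11 CPM, a rise of 1.16 (adjusted p = 0.00231) and a fall of 0.72 (adjusted p = 0.0244). Ctsb, the enzyme whose fold Tinagl1 shares, rose by 0.20 in the model (adjusted p = 0.0338) and stayed 0.24 above Control-Veh in dosed mice (adjusted p = 0.0351). The collagen-cleaving Ctsk rose by 0.69 in the model (adjusted p = 0.0334), and Ctsc fell by 0.38 with the dose (adjusted p = 0.0297).

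Vwa3a (chr7:120739318-120805742, plus strand) encodes a protein with von Willebrand factor A domains whose role is not well described, and its longest coding transcript has 34 exons. Vwa3a stood at 14.7, 15.0, 16.1 and 17.2 CPM in the 4 Control-Veh libraries. It reached 26.9, 20.4, 21.6 and 22.2 CPM in HFpEF-Veh mice, and 12.8, 12.6, 11.6 and 13.2 CPM in HFpEF-TYA-018 mice. HFpEF-Veh replicate 1 was the highest library, the HFpEF-Veh group stood above all others, and the dosed libraries lay below every Control-Veh library. The model difference was 0.53 ± 0.088 and the dose difference −0.86 ± 0.089. Dosed mice differed from Control-Veh by −0.33 ± 0.089, and the sign turned on TPM scales. Of 9 other genes with such domains 4 were tested, and 1 passed: Vwa7, which rose by 0.27 with the dose (adjusted p = 0.0245). The paralog Vwa3b had means of at most 0.0568 CPM. Among genes of motile cilia, Foxj1, Dnah5 and Dnah9 had means of at most 0.0702 CPM and Rsph1 of at most 0.409, while Cfap43 means were 9.80 (Control-Veh), 9.72 (HFpEF-Veh) and 11.6 CPM (dosed).

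Counted over the 93 related genes and partners, 70 were tested. In the model, 12 were called higher and 7 lower, 27.1% of those tested against 21.2% of all tested genes. With the dose, 4 were called higher and 17 lower, 30.0% against 19.3% of all genes, and in dosed mice against Control-Veh 3 and 2, or 7.14%. Their median log2 differences were 0.10, −0.034 and −0.042, against −0.011, 0.0020 and −0.018 over all tested genes. Ctss, Rasal2, Slc29a3, Ada, Cyth3, Arf6 and Piezo1 were the 7 called higher in the model and lower with the dose. The share of all tested genes called both ways is not given here, so nothing is read from that count. Calls of related genes rest on counts. On TPM means, Ctss, Rasal2, Ada, Cyth3 and Arf6 kept that course, Slc29a3 did not fall with the dose (0.206 and 0.206), and Piezo1 ran the other way.

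On a per-length scale, the mean TPM over the 12 libraries ran from 23.7 (Tinagl1) through 19.0 (Slc43a3), 15.4 (Hpcal1), 15.0 (Capn2) and 4.55 (Dab2ip) to 3.46 (Vwa3a), 1.87 (Fam107a), 1.82 (Frmd4b), 1.14 (Unc119b) and 0.879 (Trpv4). Only the steps from Capn2 to Dab2ip and from Frmd4b to Unc119b kept their order in all 12 libraries, and the order of the other neighbours changed between libraries. Fam107a was the lower of its pair with Frmd4b in 8 of 12 libraries although its mean was higher, since HFpEF-Veh replicate 3 reached 5.59 TPM. On TPM the HFpEF-Veh libraries lay above the Control-Veh libraries without overlap for 8 of the 10 genes, all but Slc43a3 and Vwa3a, against 2.48% of all tested genes. The dosed libraries lay below HFpEF-Veh without overlap for 2 of 10, Hpcal1 and Frmd4b, against 0.795% of all tested genes. Both TPM counts compare the same libraries and groups that chose the genes, so nothing is read from them. HFpEF-TYA-018 replicate 1 had the highest TPM of its group for 9 of the 10 genes, the exception being Vwa3a. In the other groups, HFpEF-Veh replicate 3 did so for 8 genes and Control-Veh replicate 1 for 7. The mitochondrial shares of these libraries were 35.4%, 45.7% and 40.6% in that order.

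The deposited effective length, the mean usable length of the transcripts assigned to a gene in a library, was a readout that the choice did not use. It differed most clearly for Slc43a3, with 2121, 2117, 2109 and 2220.2 bases in Control-Veh, 2389.7, 2563, 2520.4 and 2693 in HFpEF-Veh and 1828, 1995, 2116 and 2085 in HFpEF-TYA-018 libraries. The group means were 2142 ± 52.6, 2542 ± 125 and 2006 ± 129 bases (SD, n = 4). HFpEF-Veh lay above both other groups without overlap. A two-sided exact permutation test of 4 against 4 gave 0.0286 for the model and 0.0286 for the dose, the smallest p this design allows. After adjustment over the 30 tests of 10 genes and 3 comparisons no length difference passed (smallest adjusted p = 0.214). With that smallest p, most of the 30 tests would have to reach it before any could pass. The test could therefore hardly call a few genes, and nothing is read from its outcome. Groups did not overlap in length for 1 gene in the model (Slc43a3), 2 with the dose (Slc43a3 and Trpv4) and 1 in dosed mice against Control-Veh (Tinagl1), while 15.8%, 24.6% and 7.59% of all tested genes did so. The shares among the 10 genes were near that background. Effective length exceeded the longest GENCODE M21 transcript in all 12 libraries for Unc119b, Fam107a and Trpv4, and the study's methods name another GENCODE release, whose transcript lengths were not used here.

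**Figure D3:**
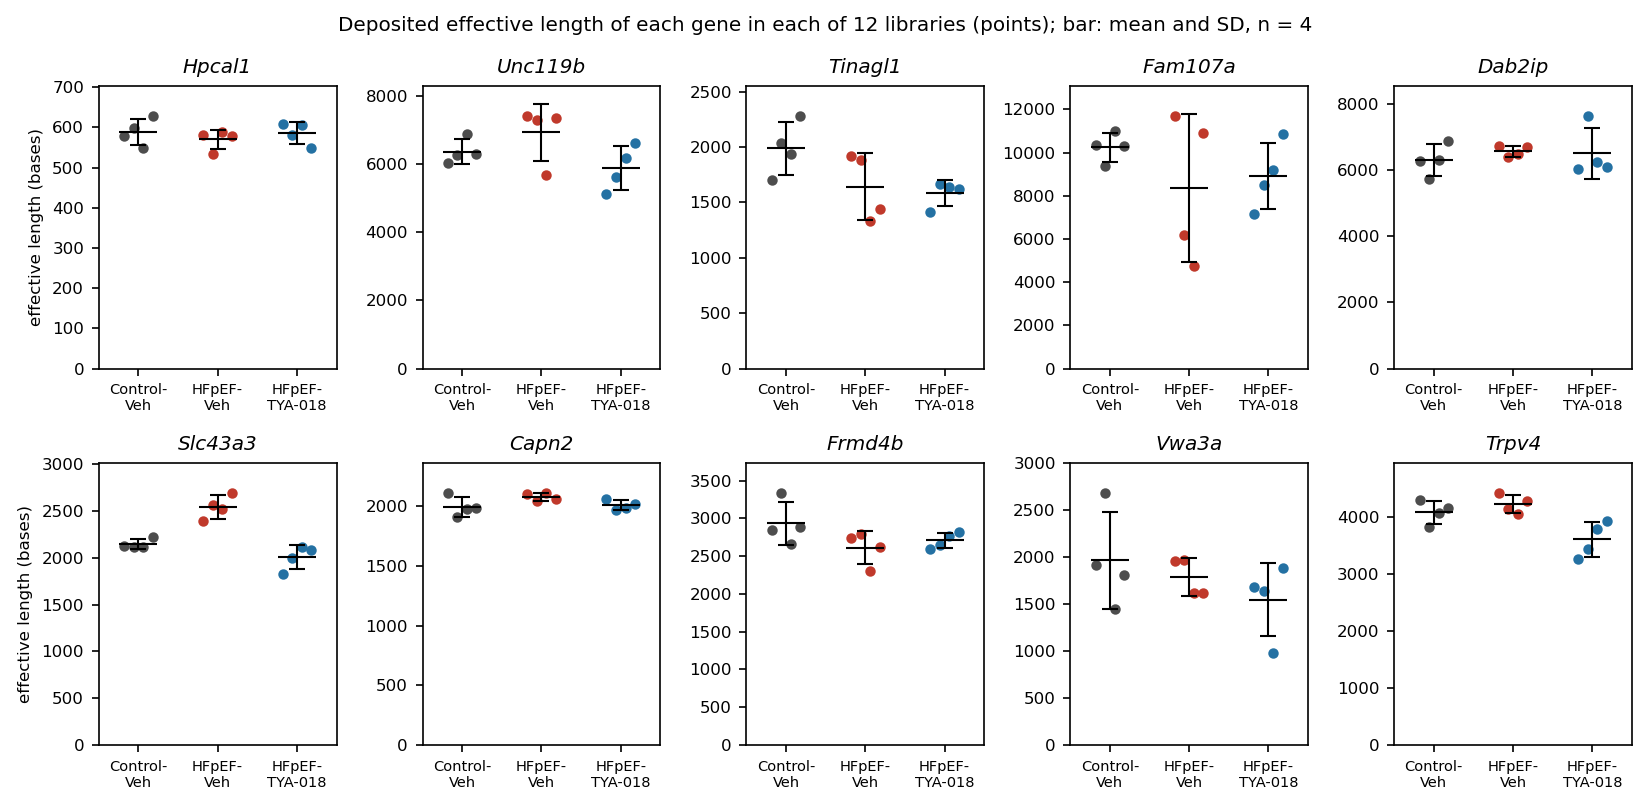
Deposited effective length in bases (y axis, one panel per gene) in each of the 4 libraries of the 3 groups, with group means marked. Slc43a3 stood at 2389.7 to 2693 bases in HFpEF-Veh against 1828 to 2220.2 in the other groups, and Fam107a spread over a 2.47-fold range in all.

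Marker genes of several cell types moved between the groups in the same direction as the 10 genes. In the counts below, rose and fell mean called at an adjusted p under 0.05. Of all tested genes, 10.9% were called higher in the model and 10.4% lower with the dose. Of 8 macrophage markers 7 were tested and 6 rose in the model and 4 fell with the dose, and their summed level ran from 97.2 to 113 CPM in Control-Veh, 149 to 195 in HFpEF-Veh and 104 to 124 in HFpEF-TYA-018 libraries. Of 10 fibroblast markers 5 rose and 6 fell, with summed ranges of 745 to 1209, 1189.9 to 1687 and 806 to 1194 CPM. The median log2 differences over these 10 markers were 0.54 in the model and −0.48 with the dose. Of 10 vascular endothelial markers 4 rose and 5 fell, with summed ranges of 1571 to 1784, 1789 to 2124 and 1492 to 1786 CPM. Cardiomyocyte markers went the other way, with 6 of 10 lower and 1 higher in the model and 5 higher with the dose, and their summed level ran from 33835 to 45375, 30738 to 32719.7 and 35855 to 40734 CPM. All 6 red cell markers rose and fell, from 1554 to 2309.6 CPM in Control-Veh to 4788 to 14149 in HFpEF-Veh and 2297.3 to 3572 in HFpEF-TYA-018 libraries. Of 7 pericyte markers 2 rose and 1 fell, of 7 Schwann cell markers 1 rose and 2 fell, and none of 7 smooth muscle markers passed either way. The endocardial, lymphocyte and atrial muscle lists each had 1 marker called lower in the model and 0 called with the dose. Of 2 tested epicardial markers 1 rose and 1 fell. The fat cell marker Adipoq and the lung marker Sftpc were at or below 0.147 CPM in mean in each group. Other markers of these lists were higher. The fat cell marker Pck1 had means of 1.11 (Control-Veh), 0.346 (HFpEF-Veh) and 0.884 CPM (dosed), and Cidec had means up to 0.266. Means of the lung marker Ager were 0.759, 0.529 and 0.442 CPM in the same order. The part of these shifts in the differences of the 10 genes was not tested.

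To see whether any of the 10 genes followed a cell type from mouse to mouse, group means were removed and the remaining deviations of each gene were related to those of 13 marker lists over the 12 libraries. Of 130 relations, 7 had an unadjusted p under 0.05 in an exact permutation test of libraries within groups, and none passed adjustment (smallest adjusted p = 0.315 for Pearson's r and 0.550 for Spearman's rho). The strongest was Dab2ip with the cardiomyocyte list, r = −0.91 and rho = −0.81, with a permutation p of 0.00441 for r, an adjusted p of 0.315 and r = −0.84 without the 2 libraries farthest from the median. Frmd4b with the macrophage list gave r = 0.71 and rho = 0.81 (permutation p = 0.00485 and 0.00434, adjusted p = 0.315 and 0.550), and r = 0.67 without the 2 farthest libraries. Each group held 4 libraries, so these relations rest on few mice. The 10 genes were also loosely related among themselves within groups, with r from −0.51 to 0.68 over 45 pairs, a median of 0.18 and 29 pairs above 0. That spread describes mice of one group and is separate from the group differences that chose the genes.

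**Figure D4:**
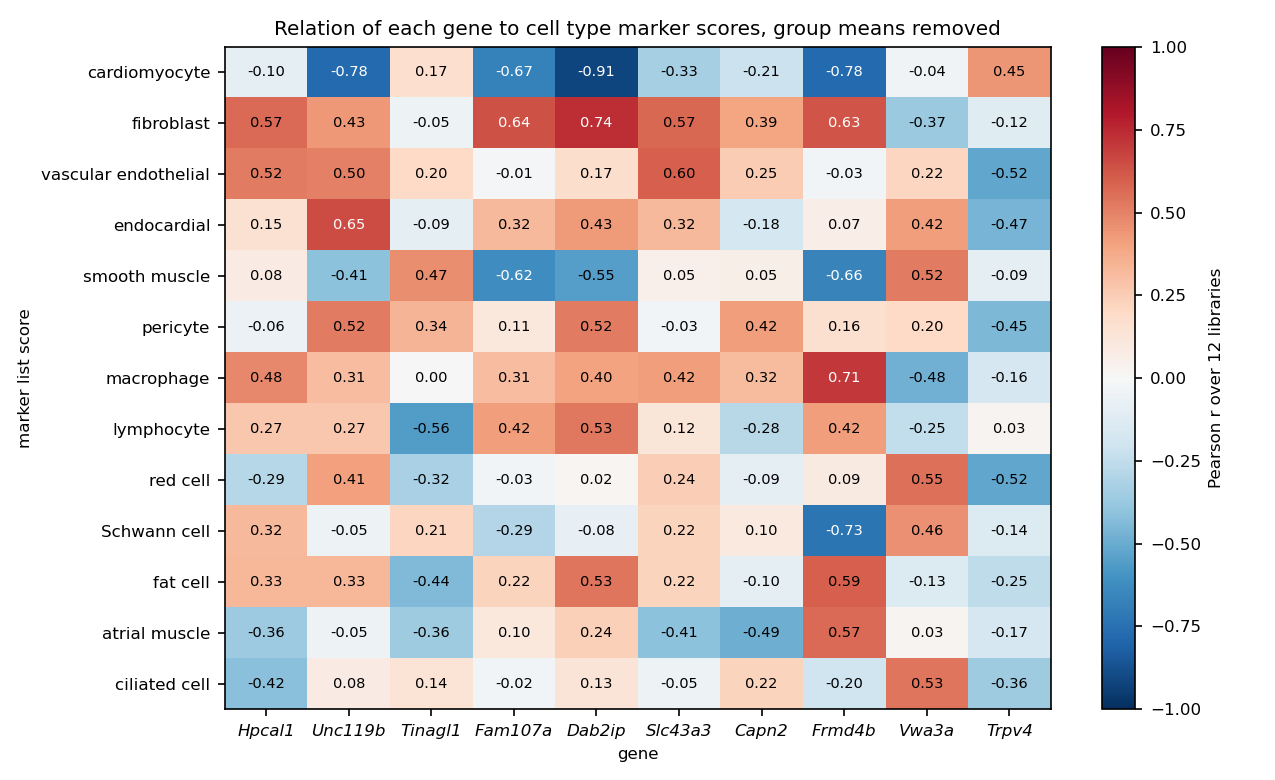
Pearson r (colour scale from −1 to 1) between each of the 10 genes (columns) and the mean of 13 cell type marker lists (rows) over 12 libraries after group means were removed. The darkest cells are Dab2ip with cardiomyocyte markers at −0.91 and Frmd4b with cardiomyocyte markers at −0.78 on the negative side, and Dab2ip with fibroblast markers at 0.74 on the positive side, and no relation passed the adjusted threshold.

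The tested genes most alike in profile, by Pearson's r of log2 CPM over the 12 libraries, are given as a description, since the group differences that chose the 10 genes enter each r. For Hpcal1 they were Usp43, a deubiquitinase (r = 0.98), and the adhesion receptor Gpr133 (0.98). Unc119b ran closest to the basement membrane collagen Col4a2 (0.99) and the adhesion molecule Sdk2 (0.97), Tinagl1 to Palm (0.97) and S100a11 (0.97), and Capn2 to the phosphatase Ptprj (0.97) and Rab6a (0.97). Fam107a and Frmd4b shared Rin3, an exchange factor for Rab5 (0.98 and 0.98), and Dab2ip and Frmd4b shared Msn, the membrane to actin linker moesin (0.98 and 0.98). The remaining nearest genes were Timp3, an inhibitor of matrix proteases, for Fam107a (0.98), Pkp4 for Dab2ip (0.98), Ablim3 and Agfg2 for Slc43a3 (0.98 and 0.96), Mertk and Arhgef10 for Vwa3a (0.97 and 0.95) and Ncf1 and Spata6 for Trpv4 (0.96 and 0.96). After group means were removed, these r values lay between 0.43 and 0.88.

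Within 50000 bases of the 10 genes lay 38 annotated genes, of which 16 were tested, around every gene but Hpcal1. In the model 3 of the 16 were called higher and 2 lower, 31.25% against 21.2% of all tested genes. With the dose 2 were called higher and 2 lower, 25% against 19.3%, and in dosed mice against Control-Veh 1 higher, 6.25% against 5.86%. The swing of the 10 genes, higher in the model and lower with the dose, was called for 2 neighbours, Rtn4rl2 and Gltp. The share of all tested genes called both ways is not given here, so nothing is read from that count. Rtn4rl2, 49869 bases from Slc43a3, rose by 0.59 (adjusted p = 0.0253) and fell by 1.10 with the dose (adjusted p = 0.00187), and Gltp, a glycolipid transfer protein 10977 bases from Trpv4, rose by 0.31 (adjusted p = 0.0104) and fell by 0.35 (adjusted p = 0.00636). Acads, an enzyme of short-chain fatty acid oxidation only 3204 bases from Unc119b on the same strand, rose by 0.47 with the dose (adjusted p = 0.00167) while Unc119b stood lower, and it stood 0.52 above Control-Veh (adjusted p = 0.00270). Mlec, also near Unc119b, rose by 0.36 in the model (adjusted p = 0.00464). Lmod3, a muscle actin nucleator near Frmd4b, moved opposite to it, lower by 0.44 in the model (adjusted p = 0.0159) and higher by 0.49 with the dose (adjusted p = 0.0114). Tchp, near Trpv4, fell by 0.49 in the model (adjusted p = 0.00441).

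**Figure D5:**
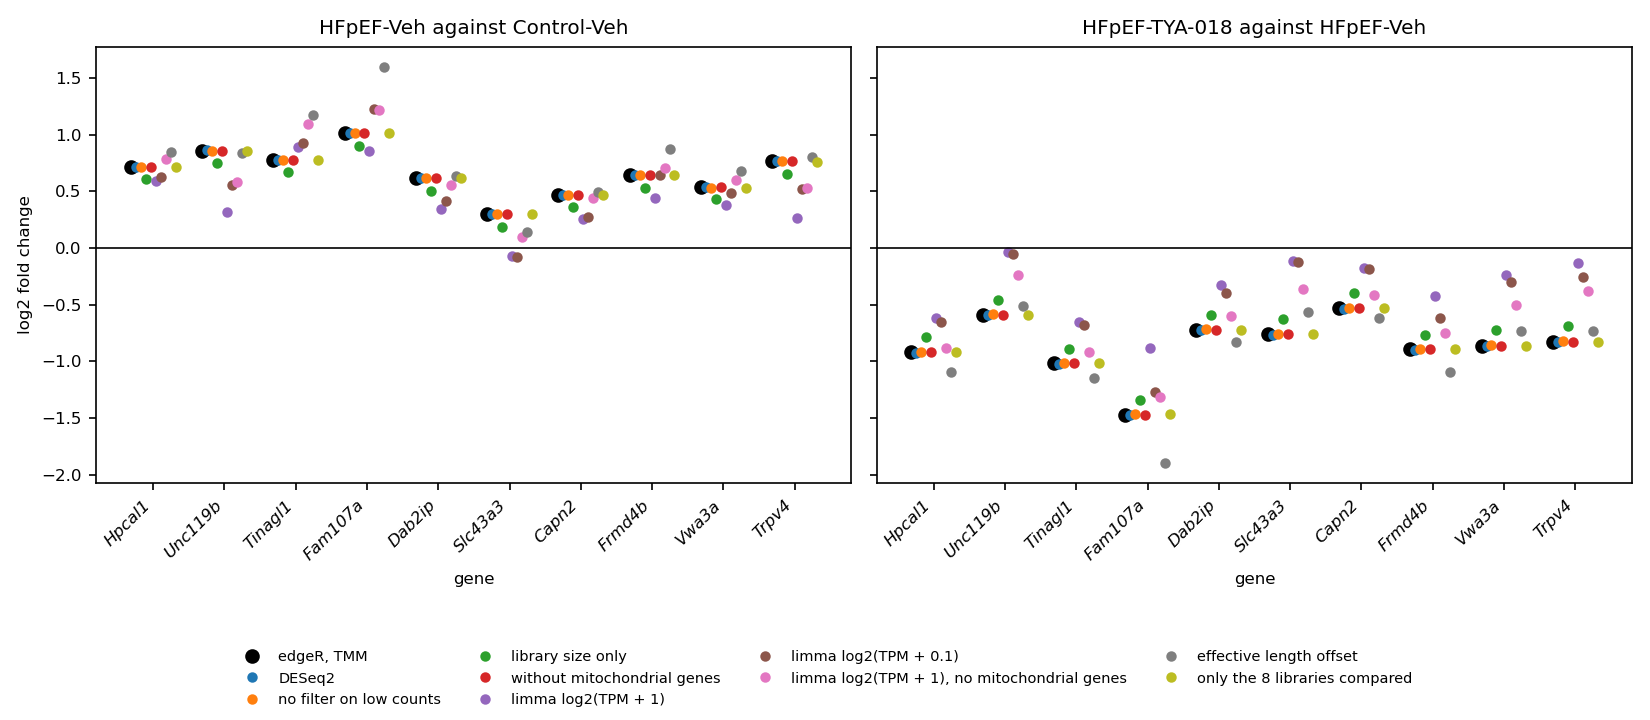
Log2 fold change (y axis) of each of the 10 genes (x axis), with the model and dose comparisons in separate panels. Points show edgeR with TMM scaling and 9 other ways of processing the same counts or TPM. The dose values stay below 0 in every setting, and Slc43a3 crosses 0 in the model on TPM.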

How the data were processed

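The authors deposited 3 gene tables from Salmon and tximport: estimated counts, TPM and effective lengths, each for the same 29564 genes and 12 libraries. Per the labels, stranded mRNA libraries were made from mouse left ventricle, and the submitters' processing notes name Salmon 1.6.0 and the human build hg38, while the study's methods name GENCODE transcripts of GRCm38 with corrections for sequence, GC and position bias. The deposited estimated counts are not normalized and were rounded to whole numbers for the tests. The deposited TPM values are scaled by the authors to length and to the total of each library, with mitochondrial genes included. The deposited effective length is in bases and averages over the transcripts that a gene used in a library. No column of per-sample values was left unused.

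The 10 genes, the gene lists and the tests were chosen with earlier results of these data known. Counts were tested with edgeR 4.0.16 in R 4.3.3 (quasi-likelihood F test, TMM scaling, filterByExpr with a minimum count of 10) in 1 fit of all 12 libraries with 9 residual degrees of freedom, and p values were adjusted by Benjamini and Hochberg over the 14333 genes that passed. A gene was called at an adjusted p under 0.05. The biological coefficient of variation was 0.232. CPM values use TMM-scaled library sizes, log2 CPM a prior count of 1, and TPM a pseudocount of 1 or 0.1. Totals of 61177646 to 83928922 estimated counts per library gave the 10 genes at least 475 counts in each. Named are the 10 genes, those of their related genes that were called in at least 1 comparison, and their paralogs closest in name. Some related genes called in no comparison are named too. Also named are the 2 genes most alike in profile to each, tested neighbours within 50000 bases and defining markers. Of the related genes that were called, 2 are not reported here. Positions, transcripts and shared words of 31 bases come from GENCODE M21 on GRCm38, and promoter windows from RefSeq on GRCm38.p6. Alternatives were DESeq2 1.42.0, no filter, library size only, removal of mitochondrial genes, limma 3.58.1 on TPM, effective lengths as an offset, the 8 libraries compared alone, and each library left out. The count test and the within-group relations were tested on simulated data. Each library carries its own animal number in the labels, so p values measure the spread between mice as sampled and sequenced here.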

Additional observations from a re-analysis of the deposited data

Results flagged for a closer look

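In 11 of 90 sets of 4 libraries (10 genes, 3 groups, 3 readouts), 12.2%, 1 library stood apart from the other 3 of its group by Dixon's test, where chance gives about 1 in 20. On CPM these were Tinagl1 in Control-Veh replicate 1, at 83.1 against 100.5 to 103, and Fam107a in HFpEF-TYA-018 replicate 4, at 29.0 against 24.6 to 25.2. On TPM, HFpEF-TYA-018 replicate 1 stood high for Hpcal1 (14.8 against 11.9 to 12.4), Tinagl1 (27.2 against 18.02 to 18.8) and Slc43a3 (23.0 against 15.5 to 16.7). Unc119b TPM was high in Control-Veh replicate 1 at 1.03, and Frmd4b TPM in HFpEF-Veh replicate 3 at 3.02. Effective length was short for Unc119b in HFpEF-Veh replicate 3 (5684 bases against 7303 to 7412) and for Tinagl1 in HFpEF-TYA-018 replicate 1 (1411 against 1623 to 1667), and long for Dab2ip in HFpEF-TYA-018 replicate 2 (7624) and Slc43a3 in Control-Veh replicate 4 (2220.2). HFpEF-TYA-018 replicate 1 was also the deepest library and had the lowest mitochondrial share, and the part of these in its TPM values was not tested. Without that library, the log2 dose differences of the 10 genes on counts ran from −1.45 to −0.51.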

How the results depend on the processing

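Across the 9 alternatives other than leaving out a library, the dose difference stayed below 0 for all 10 genes. The model difference stayed above 0 for all but Slc43a3, which stood at −0.072 on log2(TPM + 1) and −0.075 on log2(TPM + 0.1). Sizes were less stable than signs. With the sign kept, 40 of 90 dose values and 30 of 90 model values moved by at least 1 SD. Dose differences ran from −0.031 (Unc119b on log2(TPM + 1)) to −1.90 (Fam107a with the length offset). Leaving out any 1 of 12 libraries moved no log2 value of the 10 genes in these comparisons by more than 1 SD. Against Control-Veh, dosed mice had log2 differences above 0 on log2(TPM + 1), log2(TPM + 0.1) and log2(TPM + 1) without mitochondrial genes for Tinagl1 (0.24, 0.25, 0.18), Capn2 (0.089, 0.094, 0.027), Vwa3a (0.14, 0.19, 0.11) and Trpv4 (0.14, 0.26, 0.15), on the first 2 of these for Dab2ip (0.019, 0.020) and Frmd4b (0.014, 0.028), and with a length offset for Tinagl1 (0.031) and Trpv4 (0.067). The median of all genes itself moved there, to 0.080, 0.17 and 0.075 on the TPM scales, and relative to it the values of Dab2ip, Frmd4b and, on log2(TPM + 0.1) and without mitochondrial genes, Capn2 were below 0. For the dose, library size only moved that median to 0.14, and log2(TPM + 0.1) to 0.34.

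Of the 10 genes, 2 were called in dosed mice against Control-Veh, 4 with DESeq2, 1 each with no filter, library size only, no mitochondrial genes, the length offset or 8 libraries, 0 on each TPM scale, and 1 to 3 with a library left out. The lower of these, 1, came without Control-Veh replicate 3 or 4, HFpEF-Veh replicate 3 or 4, or any HFpEF-TYA-018 library, and the call that remained was Slc43a3.

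In the model 3033 genes were called, against 172, 301 and 431 on the 3 TPM scales, 1445 with the length offset and 1986 to 3992 with a library left out, the lowest without Control-Veh replicate 4. For the dose 2767 were called, against 718 on TPM without mitochondrial genes, 1217 with the length offset and 1485 (without HFpEF-TYA-018 replicate 1; 1631 without replicate 2) to 3251. In dosed mice against Control-Veh 840 were called, against 1514 with DESeq2, 324 with library size only, 9, 11 and 25 on TPM, 203 with the length offset and 308 to 809 with a library left out. The lowest of these came without HFpEF-TYA-018 replicate 2 (308), Control-Veh replicate 4 (325), HFpEF-TYA-018 replicates 1, 3 and 4 (403, 451, 529) and Control-Veh replicates 3 and 2 (497, 543). The cause of these shifts was not tested.

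No length difference passed under any setting (0 to 0), an outcome that the smallest p of so few libraries made nearly certain. The 4 cases without overlap in length became 4 to 7, the highest without Control-Veh replicate 3. Of the relations with cell type lists 0 passed, against 1 on log2(TPM + 1) (Slc43a3 with vascular endothelial markers, r = 0.97, permutation adjusted p = 0.0470) and 0 to 1 with a library left out (Frmd4b with macrophage markers without Control-Veh replicate 4, r = 0.81, permutation adjusted p = 0.0376). No paired analysis was possible because the groups shared no animal number.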
